A study of Mus musculus with 9 samples.

Results

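Dense PPARγ binding hubs were the 100-kb stretches of the mouse genome that held the most PPARγ peaks in interscapular brown adipose tissue (iBAT). The centre of each peak of the count table placed it in a bin of 100 kb, counted from the start of its chromosome, and the peaks of every bin with at least 10 peaks were kept. This gave 21474 of 66066 peaks (32.5%), in 1668 of the 14650 bins that held any peak (11.4%). The rule used peak positions only and no change over time. The mice were 10-week-old males of the inbred strain C57BL/6J on chow diet under equal periods of light and dark, and iBAT was sampled at 8 time points, every 3 h from ZT0 to ZT21. Where 8 values are listed below, they follow this order. ZT0 is lights on and ZT12 is lights off. The mice differed only in the hour of sampling, and all carried the same genotype with no treatment. The labels give 8 mice per pool, the section on animals in the study's methods gives fewer, and 1 library was made per time point with 8 μg of PPARγ antibody, so differences between mice or preparations were not measured. Whole tissue was used, so fewer cells of a type and less binding per cell cannot be told apart.

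PPARγ is the nuclear receptor that drives formation of brown and white adipocytes and keeps their lipid genes active. It binds DNA as a dimer with RXR at direct repeats called DR1, and adipocyte genes often carry many such sites spread over introns and flanking DNA. In iBAT, blood lipid uptake and heat production follow the light-dark cycle. The core clock works through activators and repressors that recognize their own short DNA elements, among them the E-box (CLOCK and BMAL1), the ROR element (REV-ERB and ROR proteins) and the D-box (DBP, TEF and HLF), while the glucocorticoid receptor binds a palindromic element.

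Reads counted in peaks ranged from 29572225 to 34264812 per library. The share of these reads that fell in the strongest 10% of all peaks was lowest at ZT15, at 44.2%, and highest at ZT6, at 48.1%, so the libraries differed in how far reads were concentrated in strong peaks. Counts were scaled by TMM factors (0.959 at ZT6 to 1.04 at ZT18), and counts of called hub peaks and their phases are given under library totals and cyclic loess as well. Sums over bins were refitted with library totals and not with cyclic loess. The part of this enrichment difference in the phases below was not tested. Of the markers of iBAT cell types, start sites of 5 of 8 brown adipocyte genes lay in hubs, against 0 of 5 of skeletal muscle, 0 of 4 of macrophages, 0 of 4 of neurons and glia and 1 of 4 of endothelium.

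Sequences of hub peaks that held a DR1 element are shown first, since this is the element PPARγ and RXR recognize. DR1 was searched along the whole length of each peak, as AGGTCANAGGTCA on both strands, allowing 2 mismatches over its 12 fixed bases. The element may thus lie far from the centre of a wide peak, and whether it is the bound site was not tested. The 4 windows below come from hub peaks called with TMM by the 24-h cosine test described below, those with the largest mean count among peaks with at most 1 mismatch, with the element in capitals. They lie in an intron of Pnpla2 (chr7:141453603-141453663, minus strand), an intron of Adipor2 (chr6:119419626-119419686, minus strand), an intron of Angptl4 (chr17:33775751-33775811, plus strand) and intergenic DNA nearest to Pex5 (chr6:124424143-124424203, plus strand), all in GRCm38 (mm10).
Pnpla2: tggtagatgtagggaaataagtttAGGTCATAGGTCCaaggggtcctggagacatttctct
Adipor2: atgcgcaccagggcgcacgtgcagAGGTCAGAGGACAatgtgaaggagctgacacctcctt
Angptl4: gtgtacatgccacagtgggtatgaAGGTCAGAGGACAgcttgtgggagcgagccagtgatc
Pex5: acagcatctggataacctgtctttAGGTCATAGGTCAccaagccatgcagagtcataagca
The Pex5 window matched all 12 fixed bases and the others had 1 mismatch. With cyclic loess the edgeR adjusted p was 0.834 for Pnpla2, 0.561 for Adipor2, 0.276 for Angptl4 and 0.366 for Pex5, so that all 4 calls were lost. Pnpla2 encodes the lipase that starts triglyceride breakdown, Adipor2 an adiponectin receptor, Angptl4 an inhibitor of lipoprotein lipase and Pex5 the import receptor of peroxisomes.

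A second group of windows shows elements of other factors in hub peaks that oscillated by both tests described below. They are the 2 peaks with the largest amplitude among those averaging 100 or more normalized reads and with the element in the middle 300 bases, for each element in the phase window in which it was most frequent. The motifs were chosen with results of these data known. Those shown were the D-box TTATGTAA, the ROR element ANNTAGGTCA, the glucocorticoid element GNACANNNTGTNC and the E-box CACGTG, each matched exactly on both strands. The C/EBP element TTGCNNAA was searched in the same way, and its shares by phase are given below with those of DR1. The ROR element contains AGGTCA, which is also the repeat unit of DR1.
D-box in an intron of Itpr1: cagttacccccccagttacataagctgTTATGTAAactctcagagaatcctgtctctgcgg
D-box in intergenic DNA nearest to 1700019C18Rik: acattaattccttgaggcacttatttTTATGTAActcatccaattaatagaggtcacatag
ROR element in an intron of Lhfpl2: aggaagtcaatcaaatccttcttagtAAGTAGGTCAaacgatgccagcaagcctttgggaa
ROR element in intergenic DNA nearest to Pja1: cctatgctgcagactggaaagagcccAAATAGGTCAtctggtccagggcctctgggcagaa
Glucocorticoid element in an intron of Zbtb16: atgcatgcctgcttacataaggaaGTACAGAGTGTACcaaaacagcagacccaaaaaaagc
Glucocorticoid element in intergenic DNA nearest to Tsc22d3: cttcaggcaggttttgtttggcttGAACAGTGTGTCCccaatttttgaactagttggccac
E-box in intergenic DNA nearest to A630001O12Rik: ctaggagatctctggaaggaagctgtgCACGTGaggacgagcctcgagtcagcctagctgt
E-box in intergenic DNA nearest to Lpl: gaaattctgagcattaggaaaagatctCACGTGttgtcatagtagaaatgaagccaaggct
The windows are, in this order, chr6:108486895-108486955 (minus strand), chr13:35413954-35414014 (plus), chr13:94100501-94100561 (minus), chrX:99531256-99531316 (minus), chr9:48723680-48723740 (plus), chrX:140507798-140507858 (plus), chr8:126895400-126895460 (plus) and chr8:68852781-68852841 (plus). The first D-box peak held 78.1, 59.3, 138, 251, 278, 273, 134 and 81.2 normalized reads from ZT0 to ZT21, and was high from ZT9 to ZT15. The Lhfpl2 peak with a ROR element ran the other way, with 523, 337, 203, 177, 185, 258, 415 and 524 from ZT0 to ZT21. The Zbtb16 peak with a glucocorticoid element stood out at ZT12 alone, with 2060 reads against 375 to 775 in the other libraries. Its window also holds an exact D-box match on the other strand (ttacataa), in small letters ahead of the marked element. Which element, if any, goes with the Zbtb16 peak was not tested. The Itpr1 window likewise holds a further exact D-box match (ttacataa), and the Adipor2 window above an exact E-box match (cacgtg), both in small letters. The E-box peak nearest to Lpl, the lipoprotein lipase gene, rose from 267 at ZT0 to 945 at ZT6 and was 157 at ZT15.

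Hub peaks were wider and stronger than other peaks. Their median width was 1004 bases against 813 for all peaks and 599 for peaks alone in their bin, and their median mean normalized count was 289 against 224 and 127. Per kilobase of peak the medians were closer, at 288, 270 and 205 reads. Hub peaks ranged from 19.9 to 13427 in mean normalized count, with quartiles of 135 and 740. They lay in introns in 57.6% of cases (50.3% of all peaks) and in intergenic DNA in 34.8% (40.8%), and 11.3% lay within 1 kb of a start site (15.7%). Median GC content was 48.1% against 47.3%.

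A DR1 element was present in 5983 hub peaks (27.9%) against 23.6% of all peaks and 17.3% of peaks alone in their bin. Within the middle 300 bases of each peak, where the searched length is the same, the order was reversed, with 9.29% of hub peaks, 9.69% of all peaks and 11.2% of lone peaks. The higher share over whole peaks went together with their greater width.

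Hubs were spread over the genome and many were neighbours. The median hub held 12 peaks, 391 hubs held at least 15, 56 held at least 20 and the densest held 29. The rule's limit cut through a continuous range, since 387 hubs held exactly 10 peaks and 513 bins held 9, and the median mean normalized count of peaks was 265 in the former and 258 in the latter. Peaks covered a median of 16.4% of a hub, and the median gap between neighbouring peaks was 2987 bases, against 7985 over all neighbours of the genome. Of the 1668 hubs, 866 touched another hub, and the longest run was 6 hubs with 76 peaks at chr17:83800000-84399999. Chromosome 2 held 138 hubs and chromosome 11 held 133, at 10.9 per 100 bins. The density was highest on chromosome 19, with 75 hubs at 12.2 per 100 bins. The X chromosome held 20, at 1.17 per 100 bins. No start site lay in 302 hubs, and 69 of these overlapped no gene.

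Within a hub, reads were concentrated in its strongest peak. That peak carried a median of 29.7% of the hub's reads (quartiles 23.6% and 37.7%), with a median mean normalized count of 2233 and a width of 3148 bases, against 253 and 938 for the other hub peaks. It lay within 1 kb of a start site in 23.8% of hubs, against 10.3% of the other hub peaks, and in introns about as often (58.3% and 57.5%). A DR1 element was present in 52.0% of strongest peaks and 25.8% of the others, but in 8.15% and 9.38% when only the middle 300 bases were searched.

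The share of counted reads in hub peaks was 43.49%, 44.82%, 44.58%, 44.92%, 44.41%, 43.94%, 43.07% and 43.30% from ZT0 to ZT21. The share was thus lowest at ZT18 and highest at ZT9. Wilson intervals at 95% were narrow, for example 44.90% to 44.93% at ZT9, and cover counting error only. Without the strongest 1% of all peaks the share ranged from 41.0% to 42.6%.

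Whether peaks followed a daily rhythm was tested with a 24-h cosine in edgeR's quasi-likelihood method, fitted to all peaks with Benjamini-Hochberg adjustment. The spread in this test is how far the 8 libraries depart from the cosine, because no time point was replicated. At an adjusted p under 0.05, 3175 of 21474 hub peaks (14.8%) were called, beside 13.4% of all peaks. JTK-cycle, a rank test with periods of 21 and 24 h, called 2713 hub peaks (12.6%), beside 11.6% of all peaks, and 1585 hub peaks were called by both. JTK-cycle was adjusted within each peak only. After Benjamini-Hochberg adjustment over all peaks its smallest value was 0.0968, so that 0 peaks passed 0.05, while edgeR's cosine gave 7115 hub peaks at an unadjusted p under 0.05. With 8 values JTK-cycle moves in coarse steps, and before this adjustment its lowest possible p is 7.44e-04, followed by 0.00595 and 0.0260. These steps limit what the adjustment over peaks can pass. Of all 40320 orders of 8 values, JTK-cycle calls 1.86%. Scaled by library totals, the cosine called 2948 hub peaks, beside 13.5% of all peaks, and with cyclic loess 2440 (11.4%, beside 11.1%). The hub share was thus close to the background under each scaling. With TMM the count fell to 1061 without ZT18 (4.94%, beside 4.64% of all peaks) and 1399 without ZT15 (6.51%, beside 5.65%). It was 1621 without ZT6 (7.55%, beside 6.48%) and 2033 without ZT9 (9.47%, beside 8.49%).

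The called share rose with peak strength, in hubs and over all peaks. Over the 4 quartiles of mean count of all peaks, divided at 111, 224 and 528 reads, 5.31%, 9.48%, 13.4% and 24.7% of hub peaks were called, beside 7.86%, 11.9%, 13.2% and 20.6% of all peaks. In bins of 5 to 9 peaks the shares were 8.34%, 13.0%, 13.1% and 19.2%, and those of lone peaks 8.81%, 12.8%, 11.4% and 10.6%. The hub share lay below that of lone peaks in the weakest quartile and above it in the strongest, a description with no test. With cyclic loess the hub shares were 4.70%, 8.36%, 12.3% and 16.4%, those of all peaks 7.05%, 10.7%, 11.9% and 14.9%, and those of lone peaks 8.55%, 12.4%, 10.6% and 10.6%. The lone peaks of the strongest quartile were 292 in number, against 7155 in hubs.

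**Figure D1:**
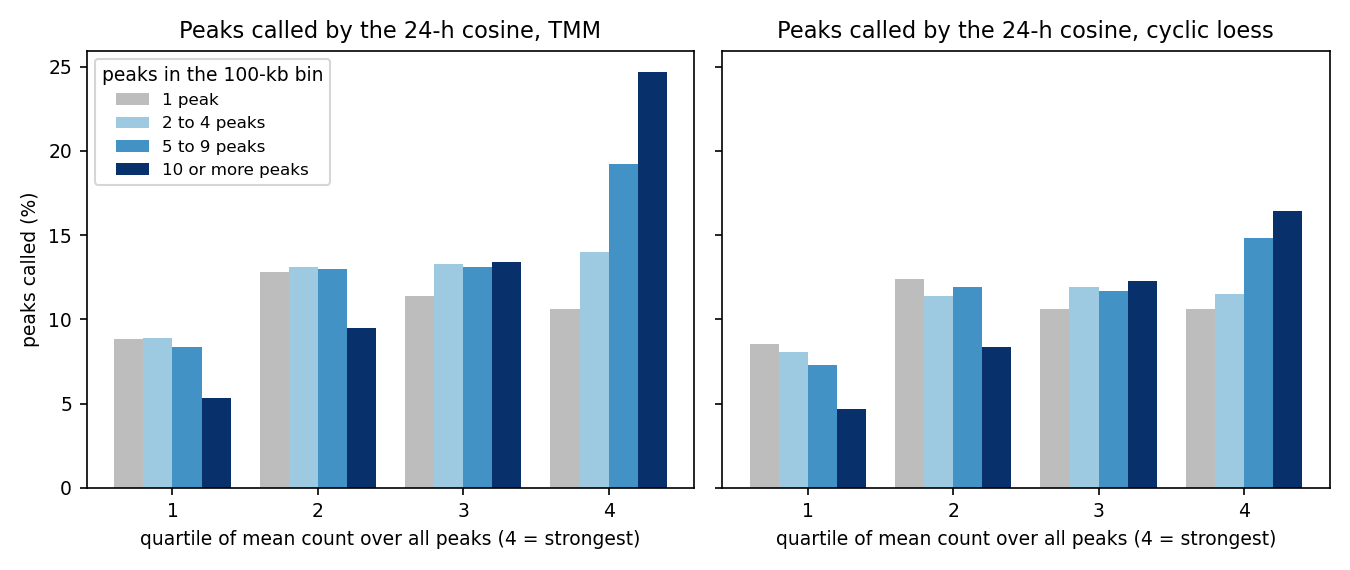
Share of peaks called by the 24-h cosine (y axis, %) in each quartile of mean count (x axis), for bins with 1, 2 to 4, 5 to 9 and 10 or more peaks, scaled by TMM on the left and by cyclic loess on the right. Hub bars climb from 5.31% to 24.7% with TMM and from 4.70% to 16.4% with cyclic loess.

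Amplitude, the difference between the fitted maximum and mean on the log2 scale, had a median of 0.337 among called hub peaks, beside 0.388 among all called peaks and 0.481 among called lone peaks. These medians cover only peaks that passed the test. Over called and uncalled peaks together they were closer, at 0.166 in hubs, 0.174 over all peaks and 0.198 for lone peaks. The strongest peak of a hub was called in 536 of 1668 hubs (32.1%) and the other hub peaks in 13.3% of cases. With library totals these shares were 24.3% and 12.8%, and with cyclic loess 16.6% and 10.9%. Called strongest peaks had a median amplitude of 0.23 and the other called hub peaks 0.36, which again leaves out peaks that were not called.

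Phase is the fitted time of the maximum in hours after lights on. With TMM, 2148 of the called hub peaks (67.7%) had a phase before 12 h, in the light phase, beside 56.7% of all called peaks. The share depended on the scaling. It was 44.9% for hub peaks and 34.9% for all peaks with library totals, and 57.7% and 51.2% with cyclic loess. Hub peaks thus had a higher share than all peaks under each scaling, while whether most of them peaked in the light turned with the scaling. Called lone peaks had 57.9%, 39.0% and 59.3% with TMM, library totals and cyclic loess, the last above hub peaks. With TMM the share also rose with peak strength. It was 41.1% of called hub peaks in the weakest quartile of mean count and 83.8% in the strongest, beside 41.8% and 77.3% over all peaks. Among the 31 called lone peaks of the strongest quartile it was 87.1%. With library totals the hub share was 20.4% in the weakest and 63.8% in the strongest quartile, beside 24.0% and 53.3% over all peaks. With cyclic loess it was 54.7% and 58.4%, beside 50.6% and 50.2%, so the rise was slight in hubs and absent over all peaks. Called lone peaks of the strongest quartile had 44.7% with library totals and 45.2% with cyclic loess. Of the 1952 hub peaks called under all 3 scalings, 1022 peaked in the light phase under each and 825 in the dark phase under each. The 3-h window with the most called hub peaks was 3 to 6 h with TMM (922 peaks) and with cyclic loess (564), and also with library totals (581).

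**Figure D2:**
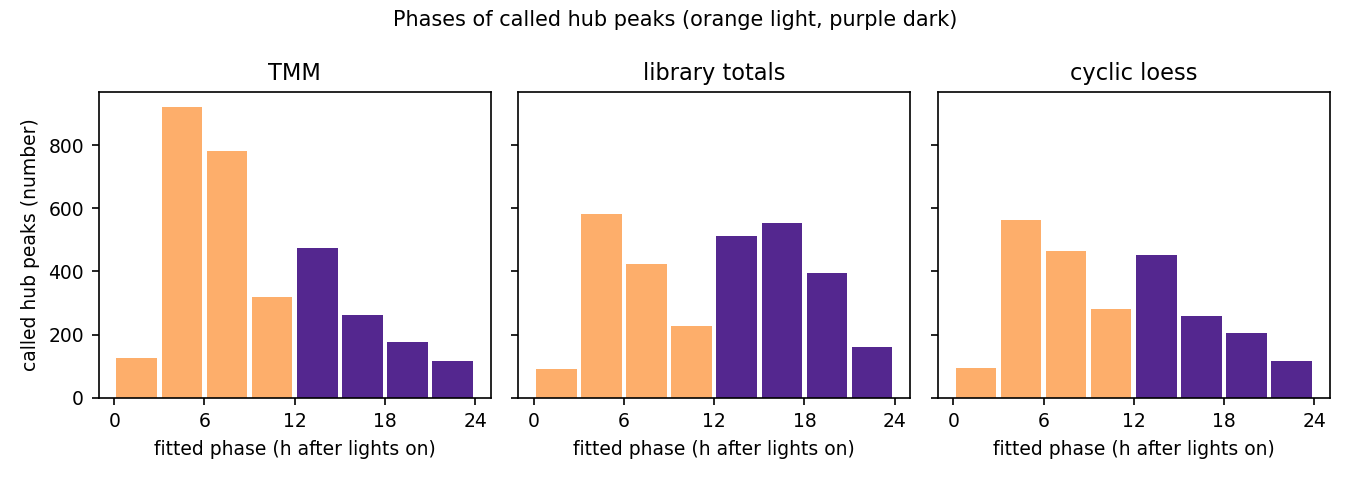
Number of called hub peaks (y axis) by fitted phase in 3-h windows (x axis, hours after lights on) under 3 scalings, with light-phase windows in orange and dark-phase windows in purple. The 3 to 6 h window holds 922, 581 and 564 peaks, while the bars of the dark phase change order between panels.

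Reads summed over each bin gave a value per hub. The sum was called for 507 of 1668 hubs (30.4%) with TMM, beside 17.1% of all bins, and for 422 hubs (25.3%) with library totals, beside 19.0%. Hub sums rest on more reads, with a median of 7263 normalized reads against 927 over all bins. Bins of 1, 2 to 4 and 5 to 9 peaks were called in 10.7%, 14.7% and 20.5% of cases with TMM and in 11.6%, 18.4% and 23.8% with library totals. The amplitudes were small, with a median of 0.18 among called hub sums. Of the called hubs, 428 had a light phase with TMM (25.7% of hubs, beside 10.6% of all bins) and 228 with library totals (13.7%, beside 6.34%). The 330 hubs called under both scalings held 228 with a light phase and 79 with a dark phase under both, and the remaining hubs changed phase. The count of called hubs fell to 164 without ZT18 (9.83% of hubs, beside 5.42% of all bins). Without ZT15 it was 272 (16.3%, beside 7.17%) and without ZT6 it was 319 (19.1%, beside 8.20%).

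Oscillating peaks were unevenly shared among hubs. No peak was called in 363 hubs, 1 in 482 and 2 or more in 823, 143 hubs held at least 5 and the most was 14. Called peaks of both light and dark phase occurred together in 278 hubs. Over the 4172 pairs of called peaks within the same hub, the median distance in phase was 1.65 h, and 70.7% of pairs lay within 3 h. Over the 5034553 pairs from different hubs the median was 4.82 h and 36.5% lay within 3 h. With library totals the medians were 1.86 h and 5.85 h, and with cyclic loess 1.77 h and 5.54 h. Peaks of a hub share their libraries, as do all peaks, so these distances are given as a description.

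The hub with the smallest p of its sum held the start sites of Nr1d1, Thra, Med24, Msl1 and Csf3 (chr11:98700000-98799999). Nr1d1 encodes REV-ERBα, a repressor of the core clock, and Thra a thyroid hormone receptor on the opposite strand. Its 21 peaks summed to 22911, 27616, 30096, 28034, 23834, 19238, 18744 and 19222 normalized reads from ZT0 to ZT21. The sum was highest at ZT6 and low from ZT15 to ZT21, 1.61 times lower at its lowest. Its amplitude was 0.36 ± 0.014 (SE, from the departures of the 8 values from the cosine), its phase 6.20 h and its edgeR adjusted p 2.82e-04, with a highest value of 0.00237 when ZT18 was left out.

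The rhythm in this hub was unequal between peaks. The strongest peak, 0.4 kb from the Nr1d1 start site, held 6936, 9117, 11310, 9225, 6968, 4488, 4667 and 4965 normalized reads from ZT0 to ZT21, with an edgeR adjusted p of 1.74e-05. The peaks 8.0 kb upstream and 7.2 kb downstream changed most, with amplitudes of 0.83 and 0.94 and ratios of highest to lowest library of 3.11 and 3.29. By contrast, the peak at 33.6 kb, near the Thra start site, had an amplitude of 0.07 (adjusted p 0.615) at a mean of 1595 reads, and that at 20.9 kb had 0.15 (adjusted p 0.258) at 1765 reads. In all, 7 of the 21 peaks were called, each with a light phase, from 1.28 to 8.64 h.

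**Figure D3:**
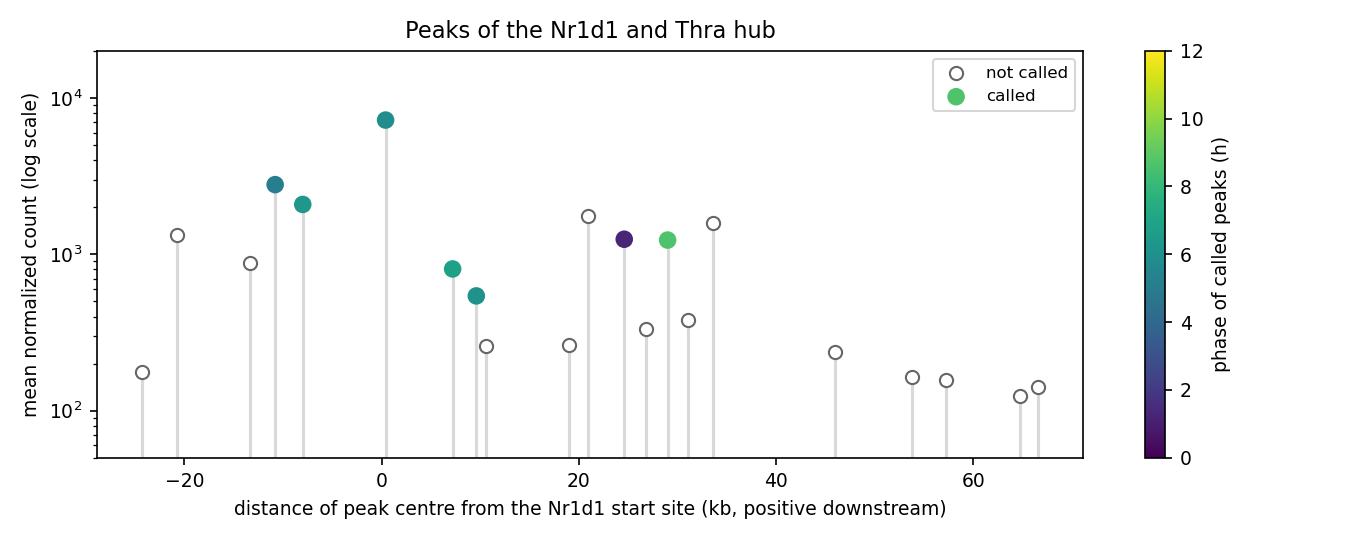
Mean normalized count (y axis, log scale) of the 21 peaks of the Nr1d1 and Thra hub by distance of the peak centre from the Nr1d1 start site (x axis, kb). Filled points are the 7 called peaks, coloured by phase from 0 to 12 h, and open points were not called; 5 of the called peaks lie between 10.8 kb upstream and 9.6 kb downstream.

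The other 4 hubs with the smallest p also kept an adjusted p under 0.05 when any library was left out. A hub with no gene in it, nearest to Cryaa (chr17:31700000-31799999), summed to 11995, 15023, 15423, 14883, 11960, 9446, 9184 and 10664 from ZT0 to ZT21. Its amplitude was 0.39 ± 0.027 (edgeR adjusted p 3.32e-04), and 54.7% of its reads lay in 1 peak, 64636 bases from Sik1, a salt-inducible kinase gene. The hub of B230206L02Rik on chromosome 11 ranged from 25539 at ZT18 to 37245 at ZT9 (adjusted p 8.22e-04).

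Ppargc1b, which encodes the mitochondrial coactivator PGC-1β, spanned 2 neighbouring hubs. The hub with its start site and that of the brown fat long non-coding RNA Lncbate10 (chr18:61400000-61499999) ranged from 21884 at ZT18 to 37672 at ZT6, with 9 of 15 peaks called, all in the light phase, an amplitude of 0.34 ± 0.040 and an edgeR adjusted p of 8.22e-04. The neighbouring hub over the same gene and Mir378a held 29 peaks, but changed less, from 20215 at ZT18 to 25768 at ZT3, with an amplitude of 0.15 ± 0.025 (adjusted p 0.0129; 0.0573 with library totals and 0.0997 without ZT18). The hub of Slc25a33, a mitochondrial pyrimidine carrier gene, peaked later, at 9.35 h, from 8927 at ZT21 to 12701 at ZT12. It held strong and weak peaks of different phase. Its strongest, at a mean of 5662 reads, had a phase of 8.10 h, and a peak in an intron of Slc25a33 had a phase of 12.7 h and ran from 125 at ZT3 to 581 at ZT12.

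**Figure D4:**
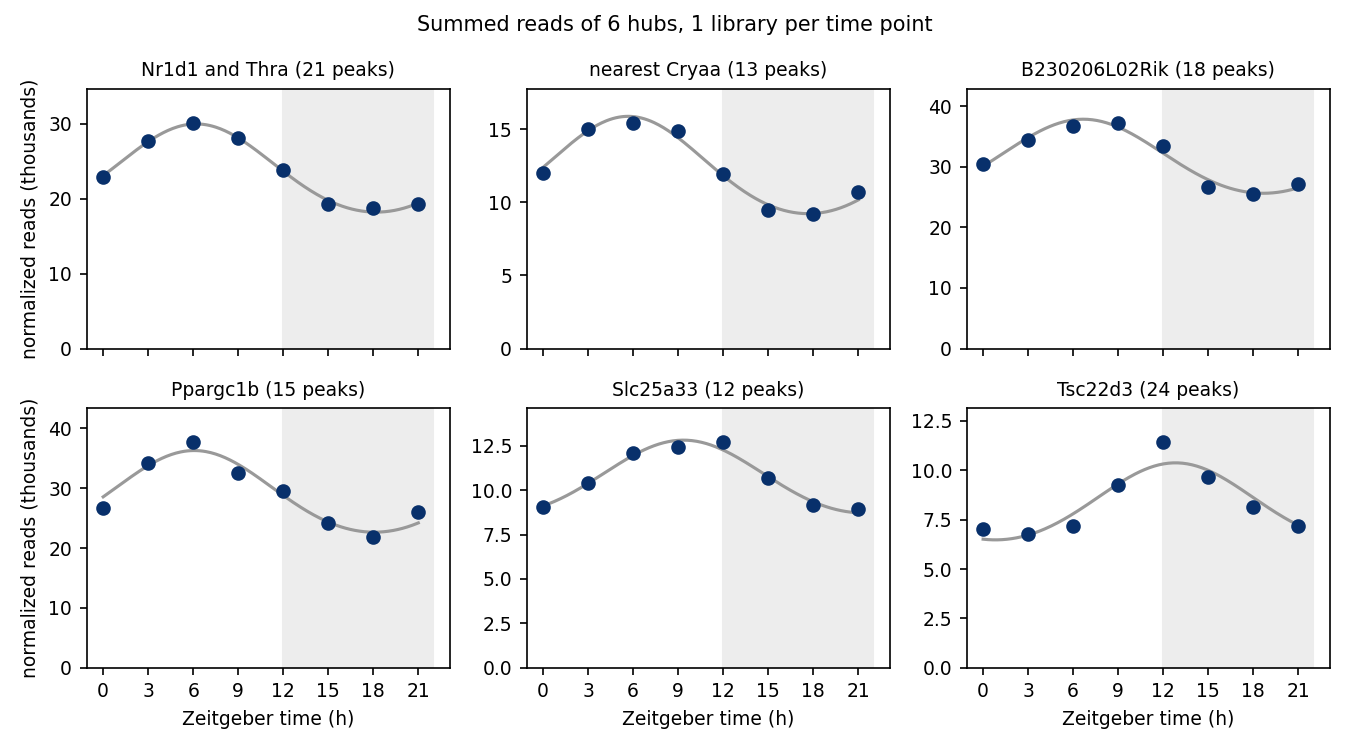
Normalized reads summed over the peaks of 6 hubs (y axis in units of 1000, from 0) against Zeitgeber time (x axis, h), 1 point per library, with the fitted cosine as a grey line and the dark phase shaded. The Nr1d1 hub falls from 30096 at ZT6 to 18744 at ZT18, while the Tsc22d3 hub is highest at ZT12, with 11422.

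Of the 10 hubs with the most peaks, 6 had a called sum, beside 30.4% of all hub sums. The Pparg hub itself, with the start site of the receptor's own gene (chr6:115400000-115499999), held 27 peaks, of which 2 were called. Its sum was 12518, 13174, 15020, 13773, 14693, 13576, 12375 and 12262 from ZT0 to ZT21. The amplitude was 0.13 ± 0.029 with an edgeR adjusted p of 0.0321, which was 0.0794 with library totals and 0.117 without ZT18. The strongest Pparg peak, in an intron 976 bases from a start site, carried 40.1% of the reads of the hub and ran from 4604 at ZT18 to 6265 at ZT6 (adjusted p 0.0251). The call was lost with library totals (0.0652) and with cyclic loess (0.581), and the adjusted p was 0.148 without ZT18, with the call kept in 4 of the 8 fits that left out a library.

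The hub of Nfix, a transcription factor gene of adipose and muscle precursors, held 26 peaks and its sum was not called (adjusted p 0.823). A weak peak in an intron of Nfix had a mean of 220 reads and ran from 107 at ZT0 to 351 at ZT12, with an amplitude of 0.81 ± 0.130 (adjusted p 0.00123), while the strongest peak, at 2631 reads, ran from 2394 to 3149 with an adjusted p of 0.849. The sums of the hubs of Snrk, Mbnl1 and Mbnl2 were not called (adjusted p 0.0899, 0.0540 and 0.0525). Mbnl1 and Mbnl2 encode RNA splicing regulators. In the Mbnl1 hub 8 of 25 peaks were called, all with a dark phase, and its sum passed with library totals (adjusted p 0.0205). The hubs of Itpk1 and Mir1936 (adjusted p 0.0464, but 0.210 with library totals and 0.227 without ZT18), Gm32200 (0.00566) and Slc25a51 (0.00595) were called with TMM, with amplitudes of 0.13, 0.18 and 0.19.

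The Tsc22d3 hub (chrX:140500000-140599999) was the called one of these 10 hubs with a phase after 12 h. Tsc22d3 encodes GILZ, a protein induced by glucocorticoids. Its 24 peaks summed to 7017, 6782, 7162, 9255, 11422, 9682, 8165 and 7156 from ZT0 to ZT21. The sum was highest at ZT12, 1.68 times its lowest value, with an amplitude of 0.34 ± 0.053, a phase of 12.8 h and an edgeR adjusted p of 0.00207, and at most 0.00994 when a library was left out. In this hub 14 of 24 peaks were called, from 11.3 to 15.4 h, and the window with a glucocorticoid element shown above lies 34838 bases from the nearest Tsc22d3 start site.

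Genes of 7 lists were looked up in the hubs. A start site lay in a hub for 3746 of 26180 RefSeq genes (14.3%). Of adipocyte and PPAR regulators it was 17 of 24 genes, of triglyceride synthesis and lipogenesis 15 of 19, of insulin signalling and glucose handling 9 of 13, of fatty acid uptake and oxidation 12 of 20, of lipid droplet and lipolysis 10 of 17, of the circadian clock 7 of 19 and of thermogenesis 4 of 15. Beside the counts of called sums below, 30.4% of all hub sums were called with TMM and 25.3% with library totals. Without ZT18 the share of all hub sums called was 9.83%, and without ZT15 it was 16.3%. The start site of Ucp1, the uncoupling protein of heat production, did not lie in a hub, with 8 peaks in its bin. The lists were chosen with earlier results known, and their shares are a description.

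The 19 hubs of adipocyte and PPAR regulators held 280 peaks, and 9 sums were called with TMM, all with a light phase, 5 with library totals and 4 without ZT18. The hub of Ppara, the oxidative PPAR family member, was 33125, 39048, 39838, 39400, 36276, 31248, 28520 and 31101 from ZT0 to ZT21, with an amplitude of 0.24 ± 0.019 and an edgeR adjusted p of 0.00131. Its strongest peak, also the hub peak with the largest mean count (13427), lay 13876 bases from Mirlet7b and ran from 10219 at ZT18 to 16825 at ZT6. The next by mean count was a peak 5409 bases from Cebpa, a partner of PPARγ in adipocyte formation, which ran from 11022 at ZT18 to 15442 at ZT6 (adjusted p 0.00755, but 0.942 with cyclic loess and 0.0750 without ZT18). The Cebpa hub had an adjusted p of 0.00306 and 7 of 14 peaks called. The hub of Ppargc1a, which encodes the coactivator PGC-1α, held 20 peaks and had an adjusted p of 0.0103 (0.0675 without ZT18). The hubs of Ebf2, a brown adipocyte determinant (0.467), and Esrra, a regulator of mitochondrial genes (0.481), were not called, with amplitudes of 0.05 and 0.04.

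Triglyceride and lipogenic genes had 16 hubs, of which 11 were called with TMM, 10 with library totals and 3 without ZT18. The hub of Pck1, the glyceroneogenic enzyme, was 21877, 27604, 30795, 27250, 25284, 19702, 18549 and 22098 from ZT0 to ZT21, and had an amplitude of 0.32 ± 0.046 (edgeR adjusted p 0.00151). Dgat2, which makes triglyceride, Fasn, fatty acid synthase, and Agpat3, an acyltransferase, lay in hubs of 21, 15 and 20 peaks with adjusted p of 0.00801, 0.00801 and 0.0387. Without ZT18 that of Dgat2 was 0.0557 and that of Fasn 0.0724, and without ZT12 that of Agpat3 was 0.172. Acaca and Acly, which supply precursors for fatty acids, were in hubs with amplitudes of 0.02 and 0.04 (adjusted p 0.878 and 0.697).

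For lipid droplet and lipolysis genes 7 of 10 hub sums were called with TMM, 6 with library totals and 3 without ZT18. The Lpl hub held 21 peaks, of which 9 were called, all in the light phase, and ran from 17700 at ZT18 to 26457 at ZT6 (amplitude 0.24 ± 0.050, edgeR adjusted p 0.00662). The hub of Cidec, a lipid droplet fusion protein, ran from 17999 at ZT15 to 21003 at ZT6 with an amplitude of 0.12 (adjusted p 0.0280). That p was 0.153 with library totals and 0.123 without ZT18, and the call was kept in 3 of the 8 fits that left out a library. The hub of G0s2, an inhibitor of Pnpla2, was not called (adjusted p 0.0551). For fatty acid uptake and oxidation 7 of 11 sums were called, 5 with library totals and 3 without ZT15. The hub of Acsl1, which activates fatty acids, had an adjusted p of 0.00331 at an amplitude of 0.21. Cd36, a fatty acid transporter, had a hub of 17 peaks and an adjusted p of 0.253. For thermogenesis 3 of 4 sums were called, 2 with library totals and 0 without ZT18, where 3 of the 4 had an unadjusted p under 0.05 in edgeR. The called ones were the hubs of Pank1, a coenzyme A enzyme, Kcnk3, a potassium channel, and Cidea, a lipid droplet protein, the last with an adjusted p of 0.0606 with library totals. For insulin signalling and glucose handling 5 of 10 sums were called with either scaling, and 3 without ZT18. The hub of Akt2, a kinase downstream of insulin, was called (edgeR adjusted p 0.00377), and those of the insulin receptor gene Insr (0.172) and of Irs1, its docking protein (0.176), were not.

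Of the 7 circadian clock hubs, 5 were called with TMM, with library totals and with any library left out. Their phases differed. The hubs of Hlf and Tef, which encode D-box binding factors, peaked at 7.31 and 7.95 h. In the Tef hub 14 of 22 peaks were called, and its sum ran from 33117 at ZT18 to 47563 at ZT6 (amplitude 0.25 ± 0.033, edgeR adjusted p 0.00209). In the Hlf hub 11 of 15 peaks were called, all in the light phase. The hub of Arntl, the gene of the activator BMAL1, was opposite, with 7937, 6028, 5329, 5181, 5169, 5477, 7740 and 7200 from ZT0 to ZT21. It was high from ZT18 to ZT0 and low from ZT6 to ZT15, with a phase of 21.6 h, an amplitude of 0.33 ± 0.057 (adjusted p 0.00306) and 9 of 12 peaks called, all with a dark phase. The hubs of Per1 and Cry2, clock repressors, were not called (adjusted p 0.132 and 0.0812).

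Among the called hub peaks with the largest fitted amplitude, 4 followed a smooth course. The peak in an intron of Sorcs2, a sorting receptor gene, held 781, 379, 138, 136, 112, 282, 635 and 666 from ZT0 to ZT21. It was high at night's end and low around ZT12, with an amplitude of 1.47 ± 0.144 and an edgeR adjusted p of 4.21e-05. The peaks in introns of Itpr1 and Slc25a33 and the one nearest to 1700019C18Rik were lowest at ZT3 and highest at ZT12 or ZT15, with ratios of highest to lowest of 4.69, 4.64 and 4.52.

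Some elements of other factors were unevenly spread over the phases of called hub peaks. A D-box lay in the middle 300 bases of 110 of 791 hub peaks with a phase of 9 to 15 h (13.9%), against 1.30% of hub peaks not called and 2.14% of all peaks. A ROR element lay in 15 of 243 hub peaks with a phase of 21 to 3 h (6.17%), against 1.21% of those not called and 1.48% of all peaks. A glucocorticoid element lay in 30 of 791 with a phase of 9 to 15 h (3.79%), against 0.639% and 0.786%, and an E-box in 127 of 1703 with a phase of 3 to 9 h (7.46%), against 5.19% and 5.55%. The first 3 shares were 14.1%, 5.91% and 4.07% with library totals and 13.6%, 7.94% and 3.41% with cyclic loess. Outside hubs the same windows gave 20.1% for the D-box, 8.14% for the ROR element, 3.85% for the glucocorticoid element and 8.34% for the E-box, so these distributions were not particular to hubs. In hubs the C/EBP element ranged from 14.8% at 15 to 21 h to 19.8% at 21 to 3 h, against 17.6% of peaks not called. DR1 ranged from 6.45% at 9 to 15 h to 10.9% at 3 to 9 h, against 9.32% of hub peaks not called. The peaks were called and placed by the same counts, so the shares are a description of letters in these windows and carry no test.

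**Figure D5:**
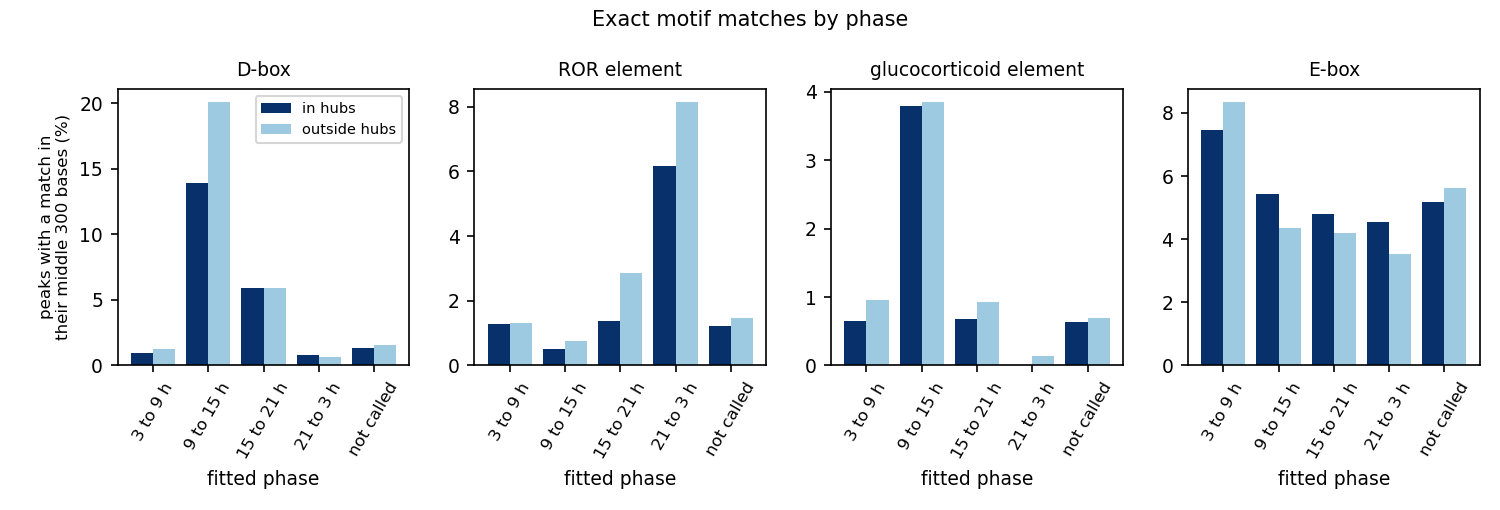
Share of peaks with an exact match in their middle 300 bases (y axis, %, scaled separately in each panel) by fitted phase (x axis), for hub peaks in dark blue and other peaks in light blue. The D-box is most frequent at 9 to 15 h (13.9% of hub peaks) and the ROR element at 21 to 3 h (6.17%).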

How the data were processed

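PPARγ ChIP-sequencing of mouse iBAT was analysed from the deposited counts, whole numbers of reads per peak and library that the authors did not normalize. The submitters' processing notes name BWA 0.7.17, MACS2 2.1.2, HTSeq 1.99.2 and HOMER 4.11 with mm10. How duplicate reads were handled is not given in the sources used here. The input library had no column in the count table and was not used.

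From the counts, TMM factors and a 24-h cosine were fitted to all 66066 peaks, and to counts summed per bin, with edgeR 4.0.16 (glmQLFit and glmQLFTest, common dispersion 0.0116 for peaks) in R 4.3.3, on 5 residual degrees of freedom. JTK-cycle used the exact null distribution in Python. Both were tested on simulated data. DESeq2 1.42.0 and limma 3.58.1 gave alternatives. Start sites came from RefSeq transcripts of GRCm38, and sequence from the same build.

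Named hubs are the 10 with most peaks, the 5 with the smallest p of the sum, and those with start sites of list genes, and named peaks are the strongest and smallest-p peaks of these hubs, the 5 with the largest mean count and the 5 with the largest amplitude. Of the list genes, those with most peaks in their bin are named, and Ppara, Cebpa, Pck1, Fasn, Acaca, Acly, Hlf and Arntl were added after their values were seen. The hubs, lists and motifs were chosen with earlier results of these data known. Intervals cover counting error only. Of the items these rules select, 1 is not reported here.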

Additional observations from a re-analysis of the deposited data

How the results depend on the processing

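Counts of hub peaks called by the cosine stayed within 1.5 times under the other scalings and filters, DESeq2's likelihood ratio test, shifted bins and a limit of 8 or 12 peaks. Those of JTK-cycle did so under the other scalings, a mean count of at least 100, a period of 24 h only, shifted bins and the same limits, and those of hub sums under library totals, DESeq2 size factors and upper-quartile factors. With each library left out, the cosine called 1061 to 3831 hub peaks, JTK-cycle 2620 to 3645 and the cosine on sums 164 to 513 hubs. Fewer libraries were fitted there, and the size of the loss without ZT18 was not tested further. At a threshold of 0.01 the cosine called 856 and JTK-cycle 1085 hub peaks. With at least 12 peaks per bin 14128 hub peaks remained. The share of counted reads in hub peaks, 44.1% over all libraries, was 43.9% with bins shifted by 50 kb, 59.0% with at least 8 peaks, 30.4% with at least 12 and 41.8% without the strongest 1% of peaks, as the peaks counted change with the rule. The light-phase share, 67.7%, was 44.9% with library totals, 65.1% with upper-quartile factors and 57.7% with cyclic loess, and the median phase distance within a hub, 1.65 h, was 1.86 h with library totals; the cause was not tested. The DR1 share, 27.9%, was 6.28% with at most 1 mismatch and 9.29% in the middle 300 bases. No paired analysis was possible because no time point had more than 1 library.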
